A study of Mus musculus with 24 samples.

Results

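Oxidative phosphorylation subunit genes were followed in mouse embryonic stem cells (mESCs) that lack 1 of 6 noncatalytic subunits of ISWI, a family of nucleosome-sliding complexes. The genes were chosen by symbol, as all protein-coding nuclear genes whose symbol starts with Nduf (without the Ndufaf assembly factors), Sdh followed by a to d, Uqcr, Cox4 to Cox8, or Atp5. The rule gave 88 genes, of which 86 were among the 24594 genes of the counts table and 84 were among the 15682 genes with enough reads to be tested. Ndufb1 and Ndufb4b were not analysed here, and Cox8b and Ndufb4c had at most 3 counts in every library and were not tested. By complex, the 84 tested genes comprised 38 of complex I, 4 of complex II, 8 of complex III, 17 of complex IV and 17 of complex V. Complexes were assigned by symbol. Ndufa4 and its paralogue Ndufa4l2 are therefore counted in complex I throughout, although the Ndufa4 product is now placed in complex IV. None of the 13 mitochondrially encoded subunits was analysed here, so the values below describe the nuclear genes of each complex that the rule caught. The rule leaves out Cyc1, the cytochrome c1 of complex III, which is given with the other lists.

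RNA-seq of untreated mESCs of the line 129S6/SvEvTac was carried out in 24 libraries, of which 11 were wild type (WT). The libraries fell into 5 sets that the labels mark A to E and that are called batches here. Batch A held 2 WT, 2 Rsf1Δ and 2 WstfΔ (Baz1b) libraries, so that these lines were compared with the same WT libraries. Batch B held 2 WT and 2 Tip5Δ (Baz2a) libraries, batch C 2 WT and 2 BptfΔ, batch D 3 WT and 3 labelled Cecr2Δ, and batch E 2 WT and 2 Acf1Δ (Baz1a). Every deletion was made with CRISPR–Cas9 and is represented by 1 clone, cultured as the WT in serum with LIF. The methods call the replicates independent without saying how they were separated, so every p-value measures the spread between these libraries.

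Oxidative phosphorylation moves electrons from NADH (complex I) and succinate (complex II) through complex III and cytochrome c to oxygen (complex IV), and the proton gradient built on the way drives ATP synthase (complex V). All complexes but complex II combine mitochondrially encoded subunits with the nuclear-encoded ones counted here, so their assembly needs both genomes. mESCs in culture also make much of their ATP by glycolysis, and respiratory gene expression is known to change as pluripotent cells move between states. Regulators long linked to the nuclear subunit genes include NRF1, GABPA (an ETS factor), YY1 and the estrogen-related receptors.

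Libraries held between 13417755 and 36721585 counts. Levels are given as normalized CPM (read counts scaled to library size), and changes as log2 fold change ± SE of a line against the WT of its own batch, tested with the quasi-likelihood model of edgeR. A gene is called higher or lower where its p, adjusted over all genes tested by the Benjamini–Hochberg method, is under 0.01. The targeted mRNA was lower in Rsf1Δ (-2.26), WstfΔ (-2.40), BptfΔ (-1.97) and Acf1Δ (-1.72), not called in Tip5Δ (-0.26), and higher (0.37) where the labels give Cecr2Δ, so in the last 2 groups the mRNA does not mark the deletion. Baz1a mRNA does not single out Acf1Δ, as it was also called lower in BptfΔ (-1.74), WstfΔ (-0.83), Rsf1Δ (-0.64) and Cecr2Δ (-0.47). Cecr2 mRNA was called lower in BptfΔ (-1.56). A deletion that removes a protein need not lower its mRNA. The paper reports that western blots detected none of the deleted proteins in their lines, and protein was not analysed here. The 6 pluripotency markers (Pou5f1, Nanog, Sox2, Esrrb, Zfp42 and Dppa5a) were abundant in every library. In batch C, 111 genes were over 10 times above the other libraries. Rpph1, the RNA component of RNase P, which carries no poly(A) tail, reached 3288 to 3499 CPM there in WT and 4034 to 4824 CPM in BptfΔ, whereas no library outside this batch exceeded 3.39 CPM. BptfΔ was tested against the WT of its own batch, and the part of this difference in values set across batches was not tested.

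The subunit genes spanned a wide range of levels, and isoforms of 1 subunit differed widely. On the scale of CPM per kb of gene width, averaged over the 24 libraries, the most abundant were Atp5b (623 ± 49.99, SD) and Atp5a1 (555 ± 38.6), the catalytic β and α subunits of ATP synthase. They were followed by Cox4i1 (306 ± 31.7), Cox6a1 (228 ± 52.0) and Cox6b1 (217 ± 35.7). Atp5b and Atp5a1 alone made up 32.1% to 35.8% of the summed CPM of the subunit genes in each library.

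Where complex IV has a widely expressed and a tissue-restricted isoform, the widely expressed one was at the higher level in all 24 libraries. Cox4i2, the isoform known from lung and hypoxic cells, was at 1.35 ± 0.494 CPM per kb beside 306 for Cox4i1. Cox6a2, the heart and muscle isoform, had at most 3 counts in 18 of 24 libraries, and Cox8b, also a muscle isoform, in all 24. Cox7a1, another muscle isoform, reached 7.23 ± 1.75 CPM per kb beside 119.8 ± 13.4 for Cox7a2, and Cox7a2l, a supercomplex factor related to it, 28.3 ± 5.18. The testis isoform Cox6b2 was at 8.63 ± 2.58 beside 217 for Cox6b1. Among the 3 genes that encode the same mature c-ring subunit of ATP synthase, Atp5g3 was at 117 ± 18.7, Atp5g1 at 11.3 ± 2.93 and Atp5g2 at 1.67 ± 0.483 CPM per kb.

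**Figure D1:**
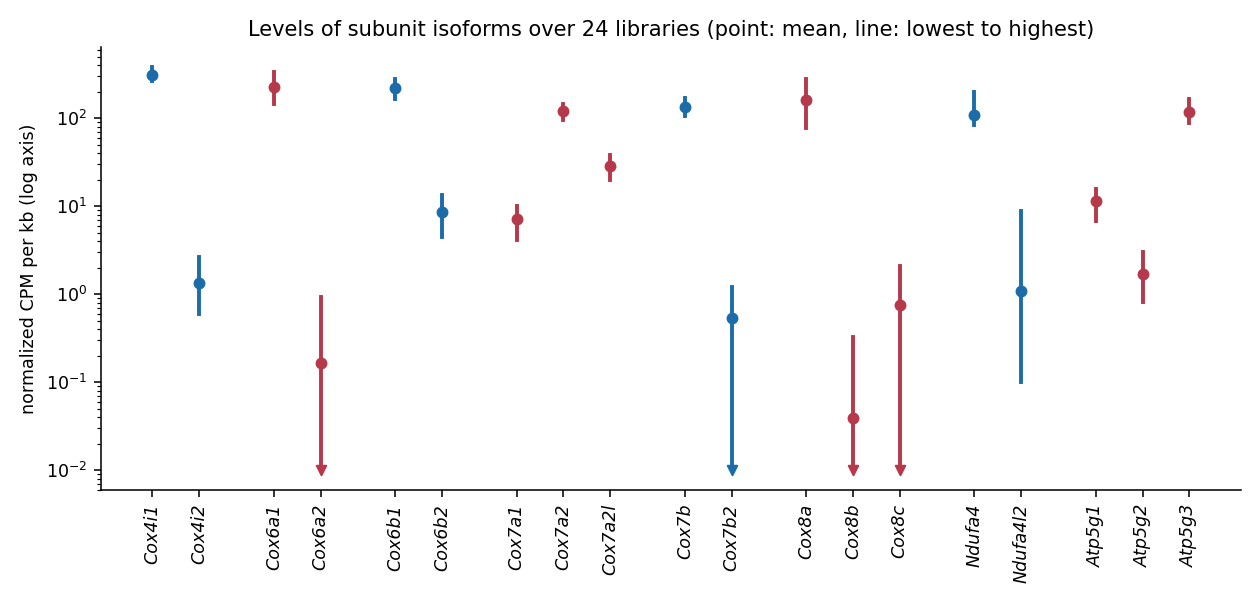
Levels of subunit isoforms in CPM per kb of gene width (log axis), with the point at the mean over the 24 libraries and the line from the lowest to the highest library; an arrow marks an isoform with 0 counts in a library. Cox4i1, Cox6a1, Cox6b1, Cox7a2, Cox7b, Cox8a, Ndufa4 and Atp5g3 each lie above the other isoforms of their set, by the widest margin for Cox6a1 over Cox6a2 and Cox8a over Cox8b.

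The median change of the subunit genes against the WT of the same batch was positive in 4 of the 6 lines, Rsf1Δ, WstfΔ, BptfΔ and Acf1Δ, although in Rsf1Δ and WstfΔ it turned negative without a batch term. The median log2 fold change over the 84 genes was 0.18 in Rsf1Δ, 0.18 in WstfΔ, 0.20 in BptfΔ and 0.16 in Acf1Δ, which is 1.12-fold to 1.15-fold. Tip5Δ stood at -0.020 and the Cecr2Δ-labelled libraries at -0.054, a value that turned positive without a batch term. Over all genes tested the median lay between -0.03 and 0.01 in the 6 lines. The log2 fold change was positive for 79 of the 84 genes in Rsf1Δ, 62 in WstfΔ, 74 in BptfΔ and 60 in Acf1Δ, beside 37 in Tip5Δ and 27 in Cecr2Δ. These signs include genes that were not called, which were most of the 84 in every line.

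In Rsf1Δ, 15 subunit genes (17.9%) were called higher and 0 lower, beside 7.45% higher and 13.1% lower of all genes tested. At an unadjusted p under 0.05 they were 34 higher and 0 lower, and DESeq2 called 18 and 0. For these 2 kinds of count no share of all genes is given, in this or the other lines, so they are not set against a background. In WstfΔ, 26 (31.0%) were called higher and 0 lower, beside 16.4% and 18.3% of all genes; 42 were higher and 6 lower at an unadjusted p under 0.05, and DESeq2 called 27 and 1. In BptfΔ, 26 (31.0%) were called higher and 0 lower, beside 21.4% and 20.2% of all genes, with 45 higher and 5 lower at an unadjusted p under 0.05 and 26 and 0 called by DESeq2. Acf1Δ had 31 higher (36.9%) and 3 lower, beside 15.1% and 16.7% of all genes, with 40 higher and 6 lower at an unadjusted p under 0.05 and 33 and 3 called by DESeq2. Tip5Δ had 0 higher and 1 lower, beside 2.84% and 6.23% of all genes, with 3 higher and 9 lower at an unadjusted p under 0.05 and 0 and 1 called by DESeq2. The libraries labelled Cecr2Δ had 2 higher and 3 lower, beside 9.52% and 8.83% of all genes, with 6 higher and 14 lower at an unadjusted p under 0.05 and 2 and 5 called by DESeq2. In all, 54 of the 84 genes were called higher in at least 1 line, 7 were called lower in at least 1, and 29 were called in no line. The same counts over all genes tested are not given here, so these 3 are no result about the subunit genes.

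These counts depend on the fit and on single libraries. With each line and its own WT alone, more subunit genes were called in WstfΔ, Tip5Δ and BptfΔ and fewer in Acf1Δ, as given below. In Rsf1Δ the 15 calls became 2 without WT replicate 2 of batch A, 5 without Rsf1Δ replicate 1 and 7 without Rsf1Δ replicate 2, while the median stayed between 0.14 and 0.19. In WstfΔ the 26 calls became 15 without WT replicate 2. In Acf1Δ the median was 0.31 without Acf1Δ replicate 1 and 0.050 without Acf1Δ replicate 2, so the replicates differ in the size of the shift. The single Tip5Δ call was lost without WT replicate 1 or either Tip5Δ replicate. The 5 calls in the libraries labelled Cecr2Δ became 9 without WT replicate 2, and 3 without Cecr2Δ replicate 2 or Cecr2Δ replicate 3, and their median moved between -0.10 (without WT replicate 2) and -0.018 (without WT replicate 1), with -0.035 without WT replicate 3. In Tip5Δ the median moved between -0.065 without Tip5Δ replicate 2 and 0.0048 without Tip5Δ replicate 1, with -0.0054 and -0.038 without WT replicates 1 and 2.

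**Figure D2:**
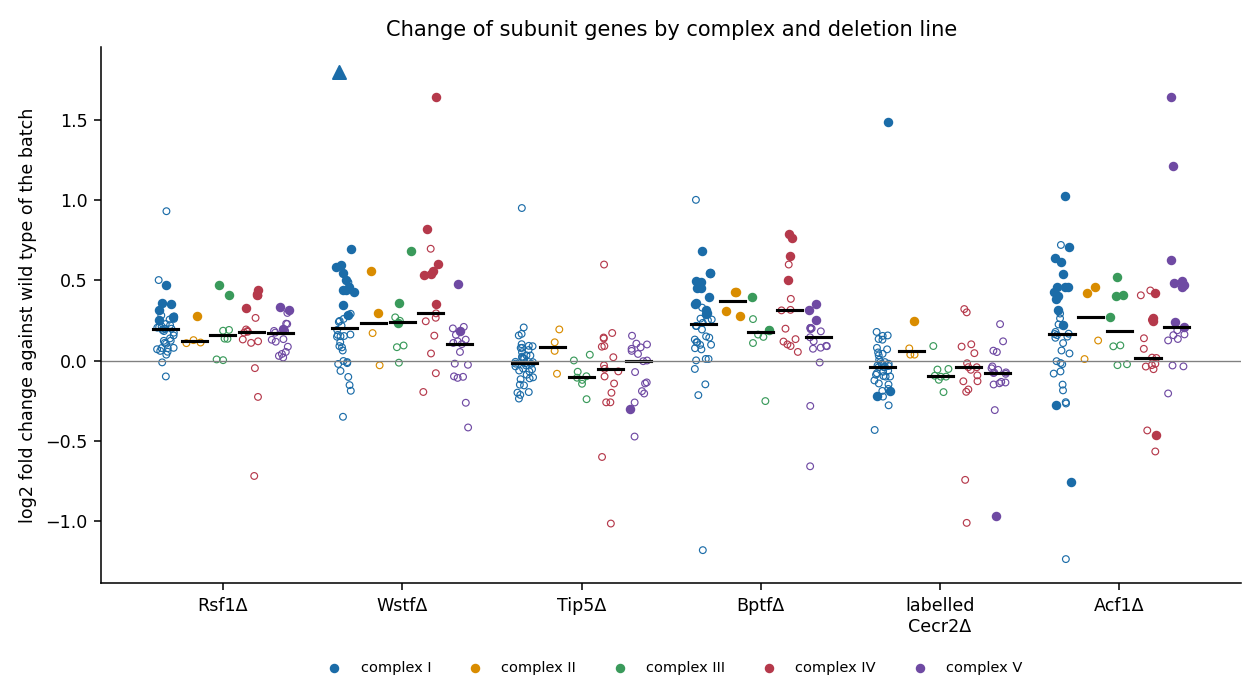
Log2 fold change of each subunit gene against the WT of the same batch (y axis), by complex and deletion line (x axis); filled points were called at an adjusted p under 0.01, open points were not, and bars mark the median of a complex. The bars lie above 0 for all 5 complexes in Rsf1Δ, WstfΔ, BptfΔ and Acf1Δ, and scatter about 0 in Tip5Δ and Cecr2Δ. Without a batch term the median over all subunit genes turned negative in Rsf1Δ and WstfΔ and positive in Cecr2Δ. A triangle marks Ndufa4l2 in WstfΔ at 5.17. Pairs with at most 3 counts in every library of a group are left out as points but enter the bars.

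The WT libraries themselves differ in these genes, which bears on what each line is compared with. Each library was scored by the median log2 difference of the 77 subunit genes above 5 CPM from their mean in the 11 WT libraries. Batch A WT lay lowest, at -0.14 and -0.19, and batch D WT highest, at 0.20, 0.05 and 0.15. Of the 84 genes, 43 had their lowest WT batch mean in batch A and 33 their highest in batch D. The ratio of the highest to the lowest WT batch mean had a median of 1.43 for these 77 genes and of 1.46 for the 10777 genes above 5 CPM.

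Rsf1Δ (0.00067 and -0.03) and WstfΔ (-0.0013 and 0.02) therefore stood above their own WT but at the middle of all WT libraries. BptfΔ (0.17 and 0.15) stood above its own WT (-0.06 and -0.08) and near the highest WT libraries. Acf1Δ (0.15 and 0.39) was above its own WT (0.08 and 0.0070), with replicate 2 above every WT library. A group mean above all 11 WT libraries was found for 30 of the 84 genes in BptfΔ (23% of all genes tested) and for 25 in Acf1Δ (8.87%). It was found for 1 in Rsf1Δ (6.94%), 7 in WstfΔ (14.7%), 3 in Tip5Δ (10.5%) and 5 in Cecr2Δ (8.33%). Without a batch term, so that each line was set against all WT libraries, the median became -0.045 in Rsf1Δ and -0.017 in WstfΔ, and 0 and 2 of their genes were called, beside 17 in BptfΔ and 3 in Acf1Δ. The direction in Rsf1Δ and WstfΔ thus depends on taking the batch A WT libraries as the comparison. Low batch A WT libraries and an offset shared by all of batch A cannot be told apart here. For the counts without a batch term no share of all genes is given.

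**Figure D3:**
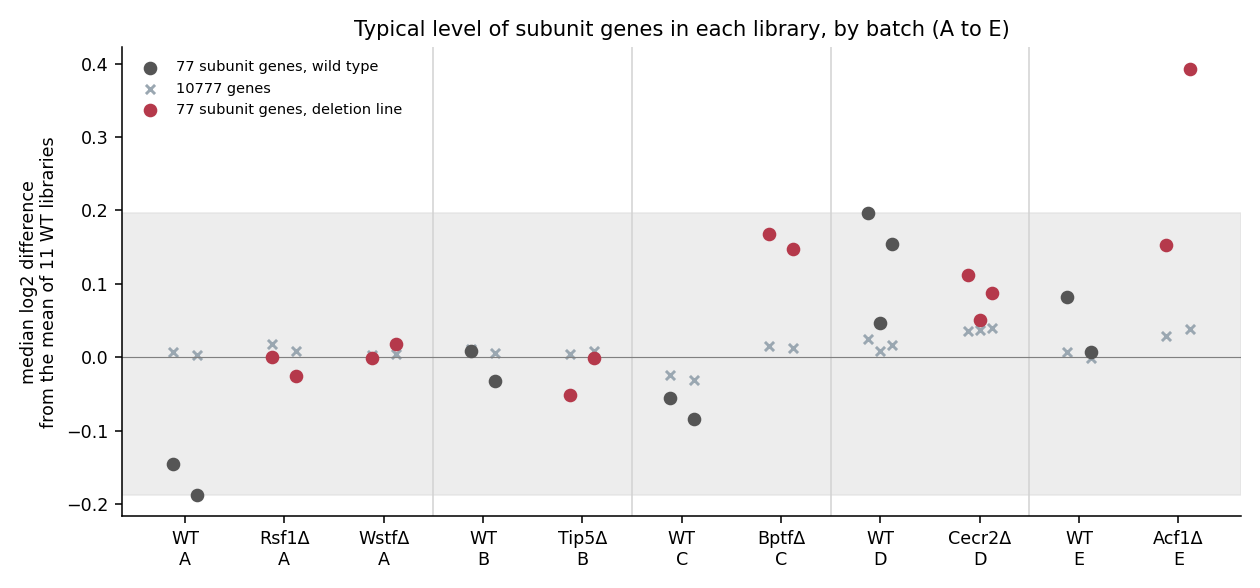
Median log2 difference from the mean of the 11 WT libraries, for 77 subunit genes above 5 CPM (points, 1 per library) and for 10777 genes above 5 CPM (crosses), by group; the grey band is the range of the WT libraries. Batch A WT lies at the bottom of the band, Rsf1Δ and WstfΔ in its middle, BptfΔ near its top, and 1 of 2 Acf1Δ libraries above it.

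Cell-state markers moved with several lines. The summed level of the 6 pluripotency markers was 3044 to 3151 CPM in batch A WT and 3974 to 4077 in Rsf1Δ and WstfΔ, 2996 to 3099 and 4068 to 4099 in batch C WT and BptfΔ, 3616 to 3762 and 4375 to 4398 in batch E WT and Acf1Δ, 3652 to 4046 and 4287 to 4497 in batch D WT and Cecr2Δ, and 3680 to 3702 and 3570 to 3762 in batch B WT and Tip5Δ. The 5 primitive endoderm markers (Gata4, Gata6, Pdgfra, Sox17 and Sox7) summed to 221 to 227 CPM in batch A WT, 92.0 to 98.2 in Rsf1Δ and 70.9 to 75.9 in WstfΔ. They summed to 99.0 to 106 in batch C WT and 12.5 to 12.8 in BptfΔ, 235 to 246 in batch B WT and 46.5 to 52.7 in Tip5Δ, 75.2 to 87.2 in batch D WT and 16.8 to 20.1 in Cecr2Δ, and 152 to 153 in batch E WT and 196 to 226 in Acf1Δ. The sum of the 4 trophectoderm markers was lower in all lines than in their own WT. It was made up mainly of the keratins Krt8 and Krt18, with medians of 52.6 and 56.1 CPM over the libraries. Cdx2 did not exceed 1.28 CPM, and Elf5 had at most 3 counts in 19 of 24 libraries, so a fall of these 2 is not shown. The sum of the 4 went from 372 to 380 CPM in batch A WT to 62.7 to 63.8 in Rsf1Δ and 40.1 to 41.1 in WstfΔ, from 289 to 299 to 165 to 181 in Tip5Δ, from 127 to 130 to 44.1 to 48.1 in BptfΔ, from 74.5 to 93.2 to 27.2 to 28.6 in Cecr2Δ and from 193 to 204 to 144 to 146 in Acf1Δ. The 5 muscle markers, whose tissue has many mitochondria, had a lower sum in every line than in their own WT, going from 16.6 to 17.7 CPM in batch A WT to 8.68 to 9.49 in Rsf1Δ and 4.98 to 5.27 in WstfΔ, from 10.2 to 12.4 in batch C WT to 2.54 to 2.63 in BptfΔ, and from 16.2 to 18.4 in batch E WT to 9.67 to 11.1 in Acf1Δ. In Tip5Δ they were at 9.53 to 11.5 beside 12.6 to 13.5, and in Cecr2Δ at 8.06 to 9.31 beside 10.1 to 14.3. Of the muscle isoforms among the subunit genes, Cox6a2 and Cox8b were at or near 0 and Cox7a1 was present in every library, at 2.19 to 5.43 CPM. The 5 fibroblast markers summed to 18.4 to 19.0 CPM in batch A WT, 9.15 to 10.1 in Rsf1Δ and 17.3 to 19.8 in WstfΔ, to 31.7 to 32.2 in batch B WT and 17.6 to 22.2 in Tip5Δ, to 7.88 to 8.5 in batch C WT and 2.54 to 3.11 in BptfΔ, to 16.4 to 18.3 in batch D WT and 15.6 to 15.8 in Cecr2Δ, and to 24.3 to 24.5 in batch E WT and 12.8 in both Acf1Δ libraries. The 3 neural markers, of which Neurog2 had 3 counts or fewer in every library, summed to 8.94 to 11.1 CPM in batch A WT, 12.02 to 12.13 in Rsf1Δ and 12.9 to 14.6 in WstfΔ, to 12.01 to 12.76 in batch B WT and 15.1 to 18.8 in Tip5Δ, and to 8.81 to 9.40 in batch C WT and 18.3 to 19.6 in BptfΔ. They were lower in the other two lines, at 9.46 to 10.3 in Cecr2Δ beside 10.6 to 11.5 and at 12.4 to 13.3 in Acf1Δ beside 18.6 to 21.4. The 4 mesoderm markers went from 4.51 to 5.94 CPM in batch A WT to 8.41 to 9.10 in WstfΔ and from 6.67 to 6.96 in batch E WT to 4.89 to 6.14 in Acf1Δ, and overlapped their own WT in the other lines. In bulk RNA, fewer cells of a type and less RNA per cell cannot be told apart, and the part of cell-state markers in the subunit results was not tested.

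Complex I, which oxidizes NADH, had a median log2 fold change of 0.20 in Rsf1Δ and WstfΔ, 0.23 in BptfΔ and 0.17 in Acf1Δ. Called higher were 6 (15.8%), 12 (31.6%), 13 (34.2%) and 13 (34.2%) of its 38 genes, beside 7.45%, 16.4%, 21.4% and 15.1% of all genes, and 2 (5.26%) were called lower in Acf1Δ, beside 16.7%. Its core subunits carry the flavin and the iron–sulfur clusters. Ndufv1, which binds NADH, was at 135 and 130 CPM in batch A WT, 154 and 165 in Rsf1Δ and 160 and 163 in WstfΔ. Neither line overlapped its WT, with log2 fold changes of 0.27 ± 0.06 and 0.29 ± 0.07 (adjusted p = 0.0018 and 0.00072, calls that were lost in both without WT replicate 2 and without replicate 2 of the line). In Acf1Δ it rose from 130 and 137 to 178 and 189 CPM (0.46 ± 0.06, adjusted p = 2.3e-06). Ndufs1, the largest core subunit, was called in no line.

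Supernumerary subunits of complex I surround the core. Among the 31 genes counted as such by symbol, Ndufb11 of the membrane arm was called higher in 4 comparisons, Rsf1Δ (0.31 ± 0.09), WstfΔ (0.46 ± 0.09), BptfΔ (0.49 ± 0.09) and Acf1Δ (0.38 ± 0.09). It was chosen for this text after its values were seen, and the first 2 comparisons share their WT libraries. Ndufa6 had the highest value of complex I among those called in BptfΔ, at 49.5 and 47.9 CPM in WT and 75.8 and 80.6 in BptfΔ (0.68 ± 0.10, adjusted p = 1.6e-06). In Acf1Δ it was lower, at 53.6 and 67.2 CPM beside 74.0 and 70.6 in WT, a difference that was not called (adjusted p = 0.026).

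The gene with the highest log2 fold change of all was Ndufa4l2, a paralogue of Ndufa4 known as a hypoxia-induced gene. Its level was 0.199 and 0.258 CPM in batch A WT and 9.75 and 6.95 in WstfΔ (5.17 ± 0.39, adjusted p = 2.6e-11). In Rsf1Δ, beside the same WT libraries, it was 0.472 and 0.407 CPM and not called. It was also higher in the libraries labelled Cecr2Δ, at 1.28, 0.963 and 1.53 CPM beside 0.569, 0.228 and 0.529 in WT (1.49 ± 0.31, adjusted p = 0.00059). Neither group overlapped its WT, and all 11 WT libraries were under 0.578 CPM. The gene thus stayed at a low level outside WstfΔ.

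Ndufa4 itself, whose product is now placed in complex IV, rose 2.04-fold in Acf1Δ and was called in no other line. It was at 129 and 114 CPM in batch E WT and 221 and 273 in Acf1Δ (1.03 ± 0.08, adjusted p = 2.4e-10), above the 114 to 164 CPM of all 11 WT libraries. Ndufa12, a supernumerary subunit of the peripheral arm, fell in Acf1Δ from 21.6 and 15.6 to 10.2 and 11.8 CPM (-0.75 ± 0.12, adjusted p = 2.0e-05), and by 0.50 on the log2 scale without WT replicate 1. WT libraries of batches A and B were as low, at 10.6 CPM or less. Ndufv3, a subunit beside Ndufv1, was lower in Acf1Δ by a small amount (-0.28 ± 0.07, adjusted p = 0.0017, a call lost without WT replicate 1 or Acf1Δ replicate 1). In the libraries labelled Cecr2Δ, Ndufa8 (-0.22 ± 0.06) and Ndufs8 (-0.19 ± 0.05) were lower with adjusted p of 0.0099 and 0.0087, and both calls were lost when any 1 Cecr2Δ library was left out. Ndufs5 varied 16.8-fold between WT batch means, from 0.638 to 21.0 CPM in single libraries, and was called in no line.

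Complex II, succinate dehydrogenase, links the tricarboxylic acid cycle to the respiratory chain and is wholly encoded in the nucleus. All 4 of its genes rose in BptfΔ, beside 21.4% of all genes called higher in that line. Sdha, the flavoprotein, went from 325 and 322 CPM in WT to 395 and 388 in BptfΔ (0.28 ± 0.05, adjusted p = 6.0e-05), above all 11 WT libraries. Sdhb, the iron–sulfur subunit, went from 94.5 and 94.5 to 127 and 128 CPM (0.43 ± 0.06, adjusted p = 2.6e-06). The membrane anchors followed, with Sdhc at 0.43 ± 0.06 and Sdhd at 0.31 ± 0.06. None of the BptfΔ values overlapped their WT.

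Of the 4 complex II genes, 1 was called higher in Rsf1Δ, 2 in WstfΔ, 0 in Tip5Δ, 1 in Cecr2Δ and 2 in Acf1Δ, beside 7.45%, 16.4%, 2.84%, 9.52% and 15.1% of all genes. With 4 genes these shares are not read further, and whether the genes differ from each other was not tested. Sdhc was at 139 and 131 CPM in batch A WT, 158 and 169 in Rsf1Δ (0.28 ± 0.06, adjusted p = 0.00033) and 203 and 194 in WstfΔ (0.56 ± 0.06, adjusted p = 7.3e-09), and at 134 and 135 in batch E WT and 181 and 188 in Acf1Δ (0.46 ± 0.06, adjusted p = 3.6e-07). Sdha was not called in these 3 lines. Sdhb rose in WstfΔ (0.29 ± 0.06) and in the libraries labelled Cecr2Δ, from 109, 102 and 108 CPM to 130, 124 and 126 (0.25 ± 0.05, adjusted p = 0.00041). In Acf1Δ Sdhb was at 0.01 ± 0.06 and not called, and Sdhd was at 0.42 ± 0.06 (adjusted p = 5.4e-06).

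**Figure D4:**
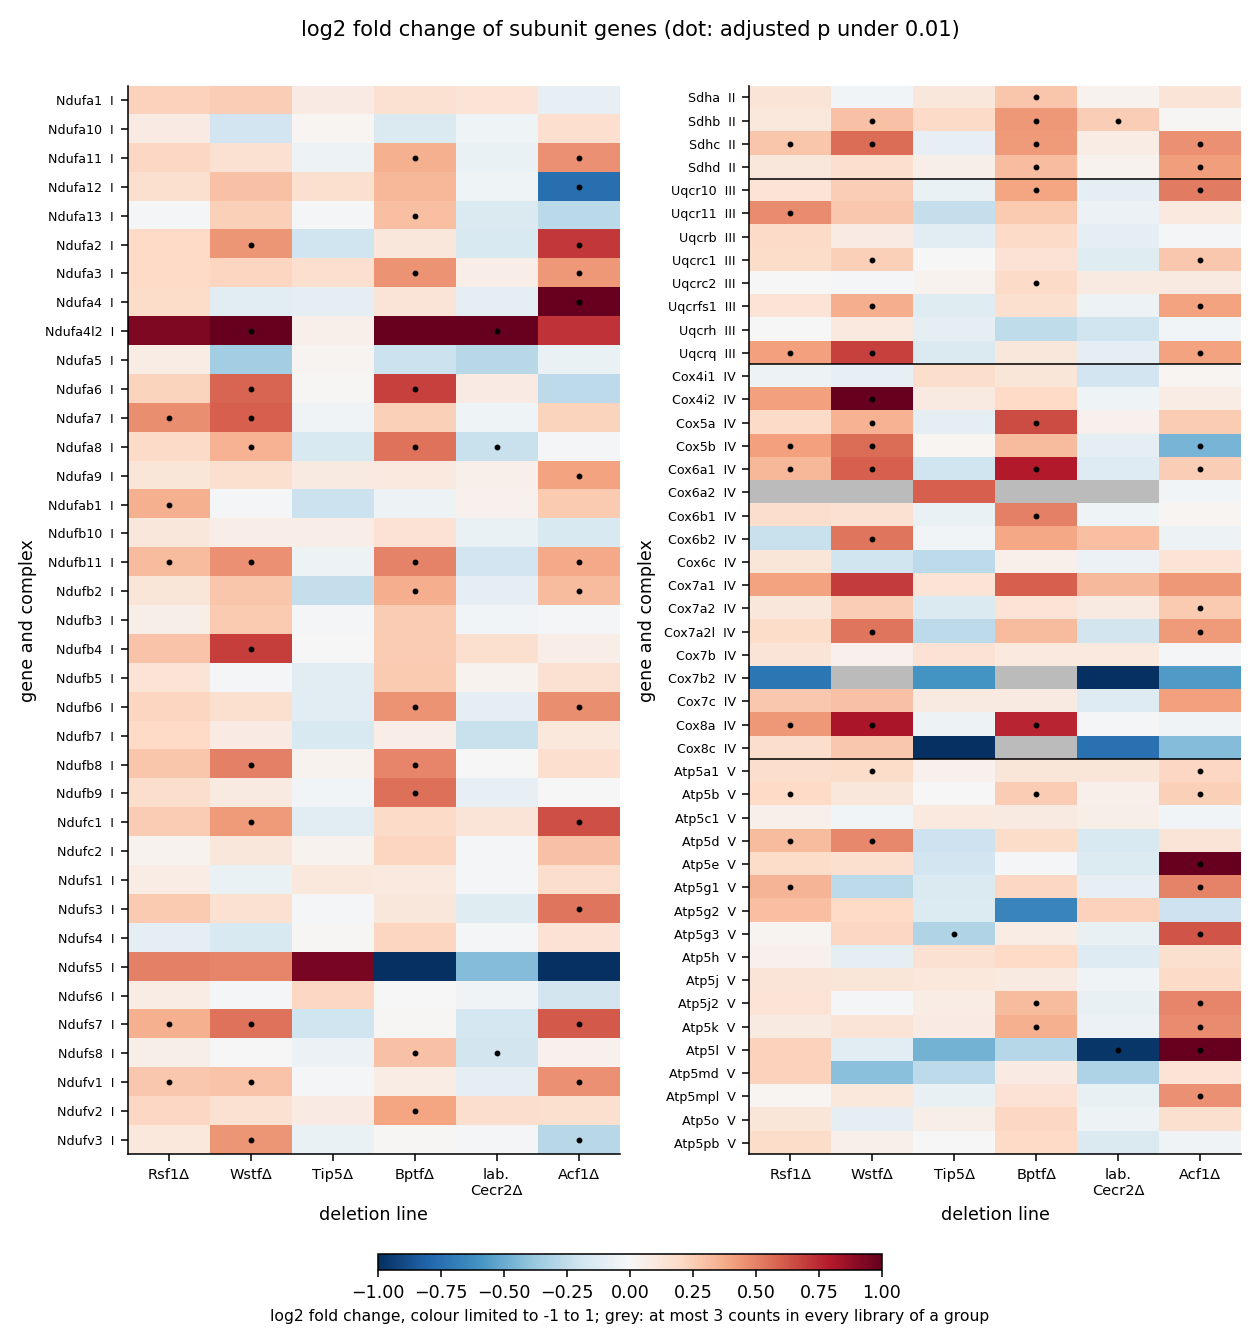
Log2 fold change against the WT of the same batch for the subunit genes (rows of colour, ordered by complex) in the 6 lines (columns), with colours limited to -1 to 1; a dot marks an adjusted p under 0.01 and grey a pair with at most 3 counts in every library of a group. All 4 complex II genes carry dots in BptfΔ, while Tip5Δ holds 1 dot (Atp5g3) and Cecr2Δ holds 5.

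Complex III, which passes electrons to cytochrome c, had 4 of 8 genes called higher in Acf1Δ (median 0.18), 3 in WstfΔ (0.24), 2 in Rsf1Δ (0.16) and 2 in BptfΔ (0.18). The shares, 50%, 37.5%, 25% and 25%, stand beside 15.1%, 16.4%, 7.45% and 21.4% of all genes, so that BptfΔ is near the background. Uqcrfs1, the Rieske iron–sulfur protein, was at 100 and 104 CPM in batch E WT and 127 and 143 in Acf1Δ (0.41 ± 0.07, adjusted p = 6.9e-05). It was also higher in WstfΔ (0.36 ± 0.08, adjusted p = 0.00029, a call lost without WT replicate 2). Uqcrc1, a core protein, rose in WstfΔ (0.24 ± 0.06, lost without WT replicate 2 or WstfΔ replicate 1) and in Acf1Δ, from 329 and 332 to 384 and 413 CPM (0.27 ± 0.06, adjusted p = 0.00030). The small subunit Uqcrq was called in Rsf1Δ (0.41 ± 0.10), WstfΔ (0.69 ± 0.11) and Acf1Δ (0.40 ± 0.10), and Uqcr10 in BptfΔ (0.39 ± 0.08) and Acf1Δ (0.52 ± 0.08). Uqcr11 had the highest value of all subunit genes called in Rsf1Δ, at 47.0 and 43.5 CPM in WT and 67.5 and 58.0 in Rsf1Δ (0.47 ± 0.09, adjusted p = 0.00012, a call lost without Rsf1Δ replicate 1). These values lie within the range of the other WT batches, which reached 71.4 CPM.

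Complex IV, cytochrome c oxidase, had a median of 0.18 in Rsf1Δ, 0.29 in WstfΔ, 0.31 in BptfΔ and 0.02 in Acf1Δ. Called higher were 3 (17.6%), 7 (41.2%), 4 (23.5%) and 3 (17.6%) of its 17 genes, beside 7.45%, 16.4%, 21.4% and 15.1% of all genes, and 1 (5.88%) was called lower in Acf1Δ, beside 16.7%. The shares called higher in BptfΔ and Acf1Δ are thus near the background. Cox6a1, the regulatory subunit VIa, was at 102 and 100.4 CPM in batch C WT and 173 and 176 in BptfΔ (0.79 ± 0.07, adjusted p = 9.5e-11). Its BptfΔ level stayed within the range of all WT libraries, which reached 200 CPM. Under the alternatives the BptfΔ value of Cox6a1 ranged from 0.21 to 0.80, and the call was lost in 1 of them. It was also called in Rsf1Δ (0.33 ± 0.06), WstfΔ (0.60 ± 0.07) and Acf1Δ (0.24 ± 0.06). Cox8a, a small membrane subunit, went from 59.2 and 48.1 to 89.1 and 93.4 CPM in BptfΔ (0.76 ± 0.11, adjusted p = 8.6e-07). In batch A it was at 55.4 and 48.7 CPM in WT, 75.6 and 65.5 in Rsf1Δ (0.44 ± 0.10, a call lost without WT replicate 2 or Rsf1Δ replicate 1) and 88.6 and 95.3 in WstfΔ (0.82 ± 0.11). Cox8a also varied between WT batches, with 114 to 172 CPM in batches D and E, so none of these lines left the WT range. Without a batch term its value turned to -0.46 in Rsf1Δ, -0.075 in WstfΔ and -0.085 in BptfΔ.

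Cox5a, a subunit on the matrix side, was at 139 and 142 CPM in batch C WT and 229 and 212 in BptfΔ (0.65 ± 0.08, adjusted p = 2.6e-07), above all 11 WT libraries. Cox5b was higher in Rsf1Δ (0.41 ± 0.11) and WstfΔ (0.56 ± 0.11) and lower in Acf1Δ, from 155 and 150 to 108 and 114 CPM (-0.47 ± 0.10, adjusted p = 0.00060). Batch E WT held the highest Cox5b level of all WT batches, and without a batch term Acf1Δ stood at 0.35. The isoform Cox4i2 rose in WstfΔ from 0.678 and 0.474 to 2.10 and 1.54 CPM (1.64 ± 0.36, adjusted p = 0.00044, a call lost without WstfΔ replicate 1). The WT libraries of other batches reached 1.62 CPM. Cox4i1, at over 405 CPM in every library, was called in no line.

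Complex V, ATP synthase, had 9 of 17 genes called higher in Acf1Δ (median 0.21) and 3, 2 and 3 in Rsf1Δ (0.17), WstfΔ (0.10) and BptfΔ (0.15). These are 52.9%, 17.6%, 11.8% and 17.6% of its genes, beside 15.1%, 7.45%, 16.4% and 21.4% of all genes, so the shares in WstfΔ and BptfΔ are below the background and are no result about the complex. Atp5b went from 2485 and 2521 CPM in batch E WT to 2864 and 3039 in Acf1Δ (0.24 ± 0.05, adjusted p = 0.00058, lost without Acf1Δ replicate 2), and from 2433 and 2334 to 2803 and 2868 in BptfΔ (0.25 ± 0.05, adjusted p = 0.00022). Its change in Rsf1Δ (0.20 ± 0.05) was called in the full set of libraries and lost without WT replicate 2 or either Rsf1Δ replicate. Atp5a1 was called in WstfΔ (0.19 ± 0.06, lost without any 1 library of the comparison) and Acf1Δ (0.21 ± 0.06, lost without WT replicate 2 or Acf1Δ replicate 2).

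The 3 ATP synthase genes with the highest log2 fold change in Acf1Δ encode small subunits. Atp5e, the ε subunit, went from 31.6 and 35.3 to 68.1 and 87.0 CPM (1.21 ± 0.11, adjusted p = 3.9e-09), while the other WT batches lay between 54.6 and 75.1 CPM. Batch E WT was therefore the low group for this gene. Atp5l, subunit g of the membrane part, went from 7.55 and 7.78 to 20.3 and 27.6 CPM in Acf1Δ (1.64 ± 0.25, adjusted p = 7.2e-06). It fell in the libraries labelled Cecr2Δ, from 48.1, 30.5 and 19.2 to 17.1, 15.7 and 17.4 CPM (-0.97 ± 0.18, adjusted p = 0.00013), and by 0.57 on the log2 scale without WT replicate 1 of batch D. Atp5l ranged from 7.55 to 48.1 CPM over the WT libraries, so both lines stayed inside that range. Atp5g3 rose in Acf1Δ, from 217 and 208 to 299 and 357 CPM (0.63 ± 0.07, adjusted p = 1.3e-07). It was the 1 gene lower in Tip5Δ, at 275 and 254 CPM in WT and 208 and 222 in Tip5Δ (-0.30 ± 0.07, adjusted p = 0.0043).

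**Figure D5:**
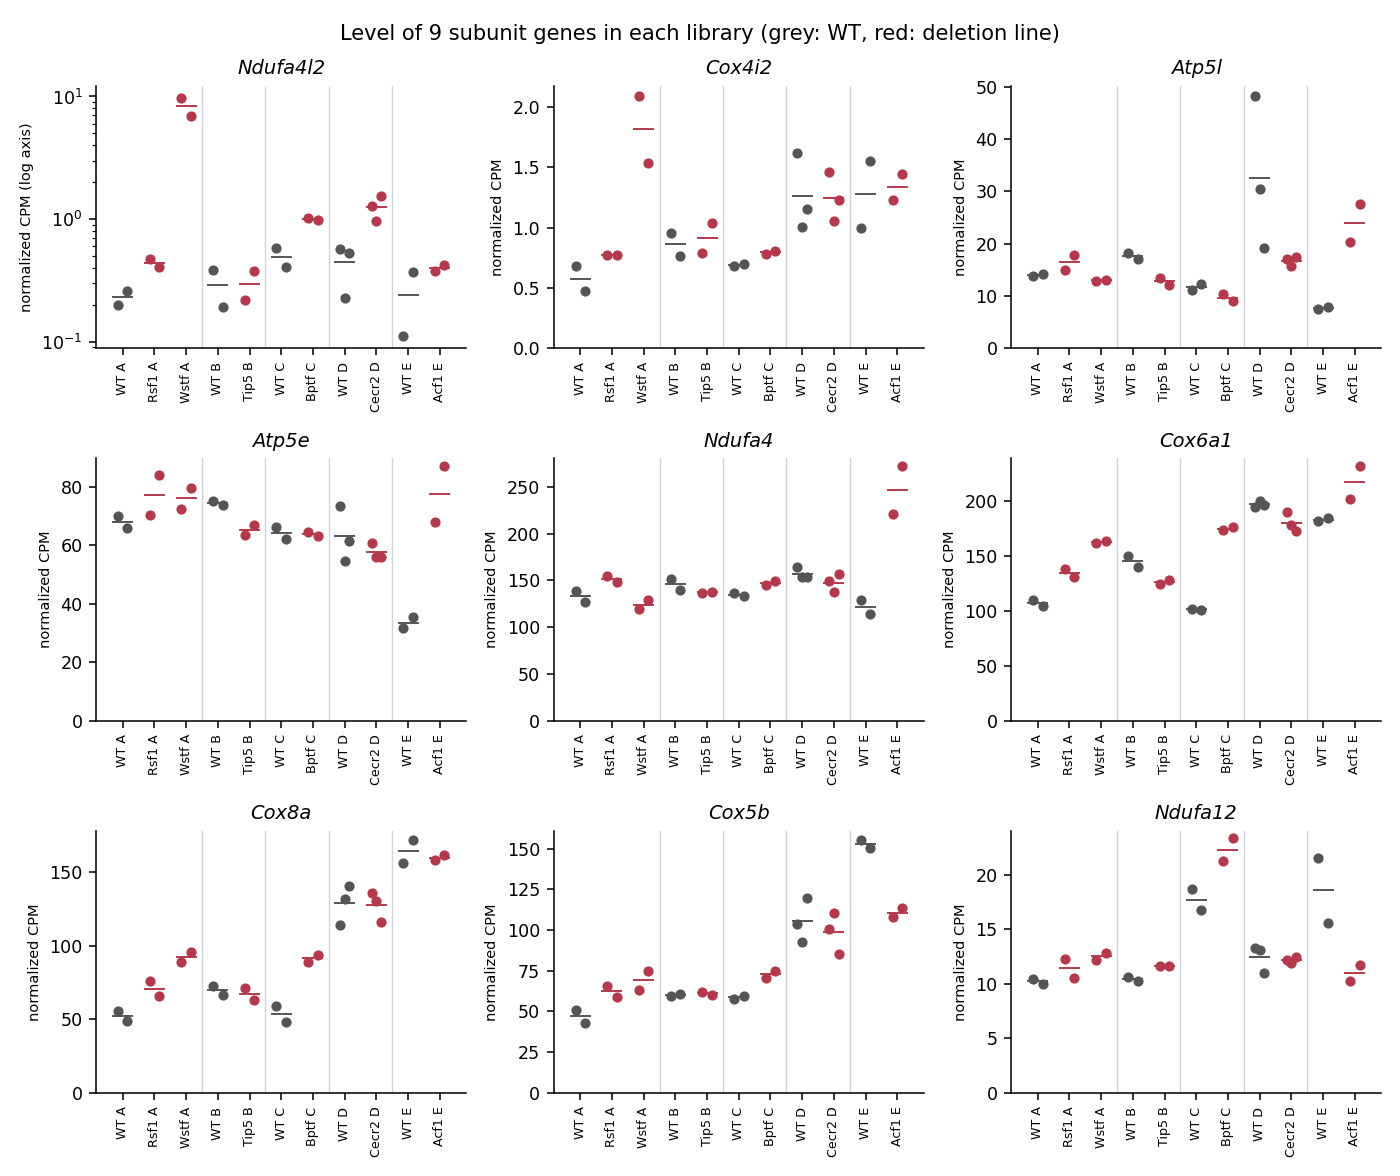
Normalized CPM of 9 subunit genes in each of the 24 libraries (points), by group and batch, with a bar at each group mean. Ndufa4l2 stands apart in WstfΔ (9.75 and 6.95 CPM), Ndufa4 and Atp5e in Acf1Δ beside a low batch E WT for Atp5e, and Cox8a shows WT batches D and E above the others.

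At the stricter limit of an absolute log2 fold change over 1 with the same adjusted p, 2 subunit genes passed in WstfΔ (Ndufa4l2 and Cox4i2, beside 10.4% of all genes), 1 in Cecr2Δ-labelled libraries (Ndufa4l2, beside 3.11%) and 3 in Acf1Δ (Atp5l, Atp5e and Ndufa4, beside 4.45%). In Rsf1Δ, Tip5Δ and BptfΔ the count was 0, beside 5.91%, 2.72% and 13.8% of all genes. A joint test asked whether the 6 lines' changes differ from each other, and 51 of the 84 subunit genes passed it at an adjusted p under 0.01, a smaller share than the 65.3% of all genes tested and so no result about these genes.

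Promoters of 5 genes named above are shown, chosen after their values were seen, so that the motifs of the regulators named in the background can be read in them. Each runs 5′ to 3′ on the minus strand of GRCm38 (RefSeq), from 250 bases before to 50 bases after the start that the RefSeq promoter table gives, with motif matches in capitals. For Atp5g3 that start lies inside the annotated gene (chromosome 2, 73908447 to 73912464).
Cox6a1, chr5:115348909-115349208: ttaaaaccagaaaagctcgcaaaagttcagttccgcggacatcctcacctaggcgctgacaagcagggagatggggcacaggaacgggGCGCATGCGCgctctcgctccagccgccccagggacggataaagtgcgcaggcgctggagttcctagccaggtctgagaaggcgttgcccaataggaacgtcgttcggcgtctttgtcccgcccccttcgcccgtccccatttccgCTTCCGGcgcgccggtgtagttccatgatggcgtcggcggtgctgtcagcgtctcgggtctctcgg
Cox8a, chr19:7217567-7217866: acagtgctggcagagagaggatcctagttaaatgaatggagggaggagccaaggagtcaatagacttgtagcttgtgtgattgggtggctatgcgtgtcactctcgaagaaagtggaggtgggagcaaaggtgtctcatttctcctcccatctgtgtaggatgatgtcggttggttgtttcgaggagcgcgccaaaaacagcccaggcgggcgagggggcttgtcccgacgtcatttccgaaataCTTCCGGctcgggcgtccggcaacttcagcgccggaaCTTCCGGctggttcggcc
Atp5l, chr9:44920693-44920992: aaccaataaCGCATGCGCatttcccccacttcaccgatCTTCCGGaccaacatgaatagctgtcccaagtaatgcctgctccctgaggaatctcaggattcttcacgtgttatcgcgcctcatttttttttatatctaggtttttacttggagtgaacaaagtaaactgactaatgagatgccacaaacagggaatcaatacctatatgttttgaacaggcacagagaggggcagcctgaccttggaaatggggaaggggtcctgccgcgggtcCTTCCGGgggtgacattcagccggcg
Atp5e, chr2:174464052-174464351: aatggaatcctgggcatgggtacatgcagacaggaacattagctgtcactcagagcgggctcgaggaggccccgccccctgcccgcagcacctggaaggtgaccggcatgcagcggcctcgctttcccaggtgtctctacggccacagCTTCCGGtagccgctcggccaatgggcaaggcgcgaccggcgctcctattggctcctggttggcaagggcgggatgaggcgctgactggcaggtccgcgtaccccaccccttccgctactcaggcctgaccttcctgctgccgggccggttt
Atp5g3, chr2:73911277-73911576: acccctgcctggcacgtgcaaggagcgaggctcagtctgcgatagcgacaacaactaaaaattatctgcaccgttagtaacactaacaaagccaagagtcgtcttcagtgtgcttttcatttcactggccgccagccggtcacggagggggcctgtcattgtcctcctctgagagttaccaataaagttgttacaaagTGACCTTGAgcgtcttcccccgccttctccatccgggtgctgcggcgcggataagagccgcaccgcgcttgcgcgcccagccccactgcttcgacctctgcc
The motifs searched on both strands were GCGCATGCG (NRF1), CCGGAAG (ETS), TCAAGGTCA (estrogen-related receptor) and AAGATGGC (YY1). Counting from 1 at the 5′ end, Cox6a1 holds overlapping NRF1 matches on both strands at bases 89 to 98 and an ETS match at 235 to 241. Cox8a holds ETS matches at 246 to 252 and 283 to 289, next to the start, and Atp5e holds 1 at 149 to 155. Atp5l holds an NRF1 match at 10 to 18 and ETS matches at 39 to 45 and 275 to 281. Atp5g3 holds the estrogen-related receptor motif at 199 to 207.

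Promoters were found for 69 of the 86 genes, 74 promoters in all, and not for Ndufa4l2, Cox4i2, Cox4i1 or Atp5a1. The NRF1 motif was in 10.8% of them, beside 2.35% of the 21263 promoters of protein-coding genes and 1.75% of all 32851 promoters. The ETS motif was in 23.0%, beside 11.6% and 8.86%, the YY1 motif in 13.5%, beside 3.05% and 2.75%, and the estrogen-related receptor motif in 2.70%, beside 0.334% and 0.423%. Of the 74 promoters these are 8 for NRF1, 17 for ETS, 10 for YY1 and 2 for the estrogen-related receptor motif. The last 2 include Atp5g3, whose start lies inside the annotated gene, and are too few to read a share. A match describes letters and does not show binding. Of 12 regulator genes tested, 2 were called higher and 0 lower in Rsf1Δ and in WstfΔ, 0 and 0 in Tip5Δ, 1 and 2 in BptfΔ, 1 and 0 in Cecr2Δ, and 1 and 2 in Acf1Δ. In every line but Rsf1Δ, where 16.7% were higher beside 7.45% of all genes, these shares lie near or below those of all genes and are no result about the list. Nrf1, Yy1, Esrra, the coactivator gene Ppargc1b and Tfam, the mitochondrial transcription factor, were called in no line, and the coactivator gene Ppargc1a was too low to be tested. Esrrb, an estrogen-related receptor of the pluripotency network, was higher in Rsf1Δ (0.31), WstfΔ (0.75), BptfΔ (1.19) and the libraries labelled Cecr2Δ (0.21), and Gabpa was lower in Acf1Δ (-0.37 ± 0.07). Polrmt, the mitochondrial RNA polymerase, was higher in Rsf1Δ (0.60 ± 0.09), WstfΔ (0.33 ± 0.09) and Acf1Δ (0.30 ± 0.09).

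Of 78 mitochondrial ribosomal protein genes, 8 were higher and 1 lower in Rsf1Δ, 7 and 11 in WstfΔ, 7 and 29 in BptfΔ, and 31 and 4 in Acf1Δ. Called higher were thus 10.3%, 8.97%, 8.97% and 39.7% of them, beside 7.45%, 16.4%, 21.4% and 15.1% of all genes, and called lower 1.28%, 14.1%, 37.2% and 5.13%, beside 13.1%, 18.3%, 20.2% and 16.7%. Their median log2 fold change was 0.13, -0.08, -0.11 and 0.20 in that order, beside 0.18, 0.18, 0.20 and 0.16 for the subunit genes. In BptfΔ, Mrpl19 was at -1.13 ± 0.07 (adjusted p = 1.1e-13), while in Acf1Δ Mrps14 was at 0.69 ± 0.08 (adjusted p = 1.2e-07). Tip5Δ had 0 higher and 3 lower, and Cecr2Δ 3 and 2. Cytosolic ribosomal protein genes, a second group of short and abundant mRNAs, had 40 of 89 higher and 12 lower in Acf1Δ (median 0.28), 14 and 1 in WstfΔ (0.07), 10 and 4 in BptfΔ (0.06), 6 and 0 in Rsf1Δ (0.12), 1 and 5 in Tip5Δ (0.03), and 1 and 3 in Cecr2Δ (-0.03). The shares called higher were 44.9% in Acf1Δ beside 15.1% of all genes, and 15.7% in WstfΔ, 11.2% in BptfΔ and 6.74% in Rsf1Δ, near or below the 16.4%, 21.4% and 7.45% of all genes. In Tip5Δ and Cecr2Δ both groups of ribosomal protein genes lay below the shares of all genes in both directions. In Acf1Δ the medians of both groups of ribosomal protein genes were thus positive too, and in BptfΔ the medians of subunit and mitochondrial ribosomal protein genes had opposite signs.

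Of 16 tricarboxylic acid cycle genes, 4 were higher and 3 lower in BptfΔ, including Suclg2 of succinyl-CoA ligase (-1.27 ± 0.08, adjusted p = 9.1e-13), which acts 1 step before complex II. These shares, 25% and 18.8%, lie near the 21.4% and 20.2% of all genes and are no result about the list. In Rsf1Δ Suclg1 was lower (-0.82 ± 0.08) and Mdh2 higher. The other lines had 0 higher and 1 lower in WstfΔ, 2 and 0 in Tip5Δ, 0 and 3 in Cecr2Δ, and 2 and 1 in Acf1Δ. Of these, 2 genes (12.5%) higher in Tip5Δ stand beside 2.84% of all genes and 3 (18.8%) lower in Cecr2Δ beside 8.83%. Among 15 complex I assembly factors, 7 were higher and 0 lower in Acf1Δ and 4 and 0 in BptfΔ, with Ndufaf5 at 0.58 ± 0.09 and 0.61 ± 0.09. They were 2 and 0 in Rsf1Δ, and 3 and 1 in WstfΔ, where Ndufaf4 was at -0.87 ± 0.09, with 0 and 1 in Tip5Δ and 0 and 0 in Cecr2Δ. Among 20 complex IV assembly factors, 5 were higher and 1 lower in Acf1Δ, 4 and 2 in BptfΔ, 3 and 2 in WstfΔ, 0 and 1 in Tip5Δ, 0 and 2 in Cecr2Δ and 0 and 0 in Rsf1Δ. Of 4 complex II assembly factors, Sdhaf1 was higher in WstfΔ (0.82 ± 0.14) and BptfΔ (0.62 ± 0.13), Sdhaf4 was higher in Acf1Δ (0.62 ± 0.12) and Sdhaf2 was lower in WstfΔ (-0.30 ± 0.08). Of 6 complex III assembly factors, 3 were higher in Acf1Δ, Ttc19 was higher in BptfΔ (0.36 ± 0.11) and Bcs1l was lower in Tip5Δ (-0.29 ± 0.08). The other lines had 0 called in these lists, as had every line among 3 complex V assembly factors. The share of complex I assembly factors called higher was 46.7% in Acf1Δ, 26.7% in BptfΔ, 20% in WstfΔ and 13.3% in Rsf1Δ, and that of complex IV assembly factors 25%, 20%, 15% and 0%, beside 15.1%, 21.4%, 16.4% and 7.45% of all genes. The lists for complexes II, III and V hold at most 6 genes each, and their shares are not read. Cyc1, the cytochrome c1 of complex III, rose in Rsf1Δ (0.31 ± 0.08) and Acf1Δ (0.58 ± 0.08), and the somatic cytochrome c gene Cycs was called in no line. Cyct, the testis form of cytochrome c, was lower in BptfΔ (-4.88 ± 0.25, adjusted p = 3.9e-15), Tip5Δ (-1.65 ± 0.15) and Acf1Δ (-0.63 ± 0.13) and higher in Rsf1Δ (0.46 ± 0.12). Over all these lists, 23 genes were called in Rsf1Δ and 5 to 13 without any 1 library of the comparison, 15 in Tip5Δ and 5 to 7 without any 1, and 15 in Cecr2Δ and 5 to 9 without WT replicate 1 or any 1 Cecr2Δ library. In WstfΔ 47 became 28 to 30 without WT replicate 2 or either WstfΔ replicate, and in BptfΔ 73 became 47 without WT replicate 2 or BptfΔ replicate 2.

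Subunit genes are short, and 65 of the 84 belong to the shortest of 4 equal width classes of the genes tested (at most 2464 bases). In that class the median log2 fold change of all genes was 0.05 in Rsf1Δ beside 0.18 for the subunit genes, 0.00 in WstfΔ beside 0.21, 0.0094 in BptfΔ beside 0.22, and 0.09 in Acf1Δ beside 0.16. In the longest class the median was -0.15 in Acf1Δ. A pseudogene named after the gene exists for 10 subunit genes, including Ndufa12, Atp5l and Cox5b, which are 3 of the 7 genes called lower in some line, and the sources used here do not say how reads that match several places were counted. Their values are uncertain to that extent.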

How the data were processed

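RNA of 24 mESC libraries was sequenced. The kit was a stranded TruSeq one for poly(A) RNA per the labels, while the methods name another TruSeq RNA kit, so strand is not settled. Per the labels and methods, the authors demultiplexed with bcl2fastq (2.17 in the labels, also a later version in the methods), aligned reads to mm10 with HISAT2 through QuasR and deposited raw gene counts with gene widths. How multiply mapped reads and strand were counted is not given in the sources used here. Gene IDs were matched to RefSeq symbols for 24570 of 24594 genes.

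Counts were tested in R 4.3.3 with edgeR 4.0.16 (TMM scaling, filterByExpr by genotype, quasi-likelihood F test on batch and genotype over all 24 libraries, Benjamini–Hochberg adjustment over 15682 genes). The steps were tested on simulated data. A group at 3 counts or fewer in every library was given no fold as a single gene. Such values still enter the medians and the counts of signs, for 1 gene in Rsf1Δ, 2 in WstfΔ, 3 in BptfΔ and 1 in Cecr2Δ. In WstfΔ the median was 0.179 with them and 0.188 without. The floor of 3 counts, 0.0837 to 0.22 CPM by library, covers counting error only. Replicates of a group differed by more than sampling noise in every pair.

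The text names core subunits, the 3 highest and 3 lowest called genes per line whose libraries do not overlap WT, genes with an absolute log2 fold change over 1, isoform sets, regulators and, of other lists, genes with the smallest adjusted p. Ndufb11, Ndufs5, Sdhc, Sdhd, Uqcrq, Uqcr10, further lines of genes named for 1 line, and the promoters shown were chosen after their values were seen. The members and lists were chosen with earlier results of these data known. Alternatives were DESeq2 1.42.0, other scalings, filters, thresholds and fits, and leaving out single libraries. The result of 1 subunit gene is not reported here on its own.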

Additional observations from a re-analysis of the deposited data

Results flagged for a closer look

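The change against WT was not the same in the 6 lines for 51 of the 84 subunit genes, by a joint test that the 6 line terms of the edgeR model are equal. This is a smaller share than the 65.3% of all genes tested that passed it, and is no result about the subunit genes as a group. Among the genes with an absolute log2 fold change over 1 in some line, the adjusted p of this test was 6.04e-10 for Ndufa4l2, which was higher in WstfΔ and in the libraries labelled Cecr2Δ, and 0.0091 for Cox4i2, which was higher in WstfΔ. It was 1.62e-06 for Atp5l, higher in Acf1Δ and lower in the libraries labelled Cecr2Δ, 7.86e-08 for Atp5e and 4.34e-09 for Ndufa4, both higher in Acf1Δ. Batch E WT held the lowest Atp5l and Atp5e levels of all WT batches, and the part of this in the Acf1Δ values was not tested.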

How the results depend on the processing

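Counts of called subunit genes are given for Rsf1Δ, WstfΔ, Tip5Δ, BptfΔ, Cecr2Δ and Acf1Δ in that order where all 6 are listed (15, 26, 1, 26, 5 and 34 as reported), and the cause of a change was not tested unless the alternative's construction shows it. Shares of all genes under the alternatives are not given, so these counts show only how the calls move. Without a batch term, which sets each line against all WT libraries, the counts were 0, 2, 0, 17, 2 and 3, those of the pathway lists 2, 3, 4, 48, 2 and 9, and the median log2 fold change was -0.045 in Rsf1Δ, -0.017 in WstfΔ, 0.13 in BptfΔ and 0.050 in Cecr2Δ. Genes that reversed there were Cox8a in Rsf1Δ (-0.46), WstfΔ (-0.075) and BptfΔ (-0.085), Ndufs8 (0.024) and Ndufa8 (0.016) in Cecr2Δ, and Cox5b (0.35) and Ndufv3 (0.0015) in Acf1Δ. With the fold limit the counts were 0, 2, 0, 0, 1 and 3. At an adjusted p under 0.05 they were 44 in WstfΔ, 4 in Tip5Δ, 41 in BptfΔ and 15 in Cecr2Δ. With each line and its own WT alone, 44 genes were called in WstfΔ, 15 in Tip5Δ, 49 in BptfΔ and 20 in Acf1Δ, and those of the pathway lists were 41, 80, 46, 119, 7 and 60. Without a filter 4 were called in Tip5Δ and 10 in Cecr2Δ, and 40, 33 and 27 of the lists in Rsf1Δ, Tip5Δ and Cecr2Δ. With library sizes alone Tip5Δ had 2 calls and a median of -0.062, and with a filter of 1 CPM in 2 libraries the BptfΔ median was 0.18. Without batch C, 0 genes were called in Tip5Δ and 3 in Cecr2Δ, and 9 of the lists in Tip5Δ. Without genes high in batch C, 3 were called in Cecr2Δ. Without division by gene width the log2 ratios were 8.80 for Cox4i1 to Cox4i2, 4.01 for Cox6b1 to Cox6b2, 4.87 for Cox7a2 to Cox7a1, 1.43 for Cox7a2 to Cox7a2l, 2.20 for Atp5g3 to Atp5g1 and 4.31 for Atp5g1 to Atp5g2, beside 7.82, 4.65, 4.05, 2.08, 3.37 and 2.76 per kb.

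Replicate numbers did not pair the samples (correlation of deviations between -0.36 and 0.22), and with the replicate block the counts were 13, 26, 0, 25, 4 and 32, with 13, 9 and 7 of the lists in Rsf1Δ, Tip5Δ and Cecr2Δ. Crossing the numbers in batches C and E, chosen after seeing the data, gave 32 calls in BptfΔ and 40 in Acf1Δ. Leaving out 1 library at a time, the called subunit genes ranged from 2 to 12, 15 to 23, 0 to 1, 19 to 23, 3 to 9 and 26 to 44, the medians from 0.14 to 0.19, 0.15 to 0.21, -0.065 to 0.0048, 0.19 to 0.22, -0.10 to -0.018 and 0.050 to 0.31, and the lists from 5 to 13, 28 to 36, 5 to 7, 47 to 53, 5 to 21 and 79 to 113. DESeq2, its size factors and the newer quasi-likelihood fit kept the direction and call of all 41 gene and line pairs named by the rule. Without a batch term 30 of the 41 lost their call and 7 reversed, 8 lost it with own WT alone, 6 with the replicate block, 1 without a filter and 3 without batch C. Depth and replicate number limit single genes, and the smallest absolute log2 fold change called among the subunit genes was 0.19 (Atp5a1 in WstfΔ).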
